A study of Mus musculus with 8 samples.

Results

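The translation initiation and elongation factors are the proteins that bring messenger RNA, initiator tRNA and the ribosomal subunits together and then move the ribosome along the message. Protein-coding genes with symbols beginning with Eif1 to Eif6, Eef1 or Eef2 were taken from the count table after its Ensembl identifiers had been matched to gene symbols, and the Eif2ak kinases were left out. This gave 83 genes of the 56980 in the table. Of these, 60 had enough counts to be tested, among 21991 genes tested in all. The other 23 genes comprised 7 with no count in any library, Eif4a3l2, Eif4e1b, Eef1ece2 and 13 genes with numbered Eif1ad symbols.

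The study compared regulatory T cells (Tregs) of mice in high-altitude de-acclimatization (HADA) with those of Control mice, to ask which transcripts accompany the return from hypoxia to normoxia. All animals were male C57BL/6j mice, purchased at 8 weeks of age. HADA mice lived for 28 days in a hypobaric hypoxia chamber set to a simulated altitude of 6000 m and then returned to normoxia, and Control mice were kept in normoxia. Flow cytometry was used to sort Tregs from peripheral blood, by markers not given in the sources used here for these libraries, and RNA-seq was performed on 4 libraries per group, made with an amplification kit for low cell input. The time between the return to normoxia and the RNA-seq sort is not given in the sources used here, nor is it stated whether each library came from 1 animal or a pool, so the spread between libraries may be partly technical. In sorted cells measured in bulk, fewer cells of a type and less RNA per cell cannot be told apart.

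Initiation begins when eIF2, carrying GTP and the initiator tRNA, joins the small ribosomal subunit with eIF1, eIF1A, eIF3 and eIF5. The cap-binding complex eIF4F (eIF4E, the scaffold eIF4G and the helicase eIF4A) recruits the message, and eIF2B recharges eIF2 with GTP for the next round. Phosphorylated eIF2 blocks eIF2B, and 4E-binding proteins sequester eIF4E when mTOR is low, so that these are the main points at which stress, hypoxia and nutrient supply act on protein synthesis. During elongation eEF1A delivers aminoacyl-tRNA, the eEF1B subunits recharge eEF1A, and eEF2 moves the ribosome by a codon.

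Many elongation factor and eIF3 messages begin with an unbroken run of C and T at their first bases, through which mTOR sets their translation. Start windows are shown for 3 genes of this kind (Eef1a1, Eef1g and Eif3f), for the alpha subunit of eIF2 (Eif2s1), which had the largest difference, and for the gamma subunit genes on the X and the Y chromosome (Eif2s3x and Eif2s3y), whose ratio did not overlap between the groups. Each window holds the 15 bases before and the 15 bases from the annotated transcript start on the gene's own strand, in GRCm39, and the capitals mark the longest run of C and T.
Eef1a1: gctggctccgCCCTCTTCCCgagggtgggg
Eef1g: ccccacccctcgCTTTTTCCaactcagcgg
Eif3f: ttctgttctaggCTCTCTCTCTTTCTCggc
Eif2s1: tcgtcacagcgCCCTCTCTTggttgactaa
Eif2s3x: ccgccttcccgccgCTTCCCCTTCgctccg
Eif2s3y: atccgccaTTTTacagccccgcccataggc

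The windows lie at chr9:78388992-78389021 on the minus strand (Eef1a1), chr19:8944390-8944419 on the plus strand (Eef1g), chr7:108533606-108533635 on the plus strand (Eif3f), chr12:78908578-78908607 on the plus strand (Eif2s1), chrX:93256301-93256330 on the minus strand (Eif2s3x) and chrY:1010528-1010557 on the plus strand (Eif2s3y). The runs are 10 bases long in Eef1a1, 8 in Eef1g, 15 in Eif3f, 9 in Eif2s1, 10 in Eif2s3x and 4 in Eif2s3y. Each is the longest anywhere in the window and need not begin at the start. Other elongation factor genes had shorter runs, 6 in Eef1a2, 4 in Eef1b2, 7 in Eef1d, 6 in Eef1e1 and 2 in Eef2. For eIF3 the runs were 11 in Eif3k, 9 in Eif3c and 8 in Eif3g. They were 2 to 5 in Eif3a, Eif3b, Eif3d, Eif3e, Eif3h, Eif3i, Eif3j1, Eif3l and Eif3m. A run of at least 8 bases was found in the windows of 14 of the 83 factor genes (16.9%) and of 12.3% of 21631 protein-coding genes. Among the tested factor genes, the 11 with such a run had a median log2 fold change of 0.942 and the 49 with a shorter run had 0.746. The letters TGACNNNGC, the core of the antioxidant response element that NRF2 binds, was searched on both strands from 250 bases before to 50 bases after the start, and was found in 16 of the 83 factor genes (19.3%) and in 12.5% of the protein-coding genes. Such matches describe the letters only.

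Total counts were between 22929193 and 28240337 in the HADA libraries and between 1477431 and 22584062 in the Control libraries, the smallest being Control replicate 1. Foxp3, the defining Treg factor, was listed at 0 in every library, as were Ms4a1 and Alas2, and other gene spans cover the whole of each of these genes. The 7 other Treg and T cell markers (Il2ra, Ctla4, Ikzf2, Cd4, Cd3d, Cd3e and Trac) summed to 1810 to 5710 CPM (counts relative to a library's total, after edgeR's TMM scaling) in HADA and 309 to 1670 CPM in Control. Of other cells, myeloid markers summed to 798 to 3330 CPM in HADA and 47.1 to 1680 CPM in Control, B cell markers to 850 to 2900 CPM and 75.1 to 2270 CPM, and platelet markers to 267 to 1660 CPM and 42.3 to 470 CPM. Erythroid markers summed to 144 to 2810 CPM in HADA and 1020 to 28300 CPM in Control, and NK cell markers to 0.827 to 43.1 CPM and 0 to 3.25 CPM. The CD8 T cell markers summed to 14.5 to 176 CPM in HADA and 0.621 to 2.76 CPM in Control, with no overlap. Of all markers tested, 1 passed the thresholds described below, the CD8 T cell gene Cd8b1, which was higher in HADA (log2 fold change 4.97, edgeR's quasi-likelihood test, adjusted p = 0.0301). Control replicate 1 held the largest erythroid, myeloid, platelet, B cell, and Treg and T cell sums of the Control libraries, and the part of these cells in the results was not tested.

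Control replicate 1 also stood apart from the other Control libraries in the factor genes themselves. Its level lay within the range of the HADA libraries for 47 of the 60 tested genes. By contrast, 46 genes lay below the HADA range in Control replicate 2, 42 in replicate 3 and 30 in replicate 4. The counts of genes, and the values of the genes whose call turned on it, are therefore given with and without Control replicate 1. The median log2 CPM of the factor genes was 5.91, 5.86, 6.38 and 6.80 in HADA replicates 1 to 4, and 6.27, 1.79, 2.94 and 5.27 in Control replicates 1 to 4. The standard deviation of log2 CPM between libraries had a median of 0.898 over the factor genes in HADA and 2.30 in Control, against 0.724 and 1.58 over all genes tested. Without Control replicate 1 the Control value was 1.67 for the factor genes and 0.634 for all genes.

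**Figure D1:**
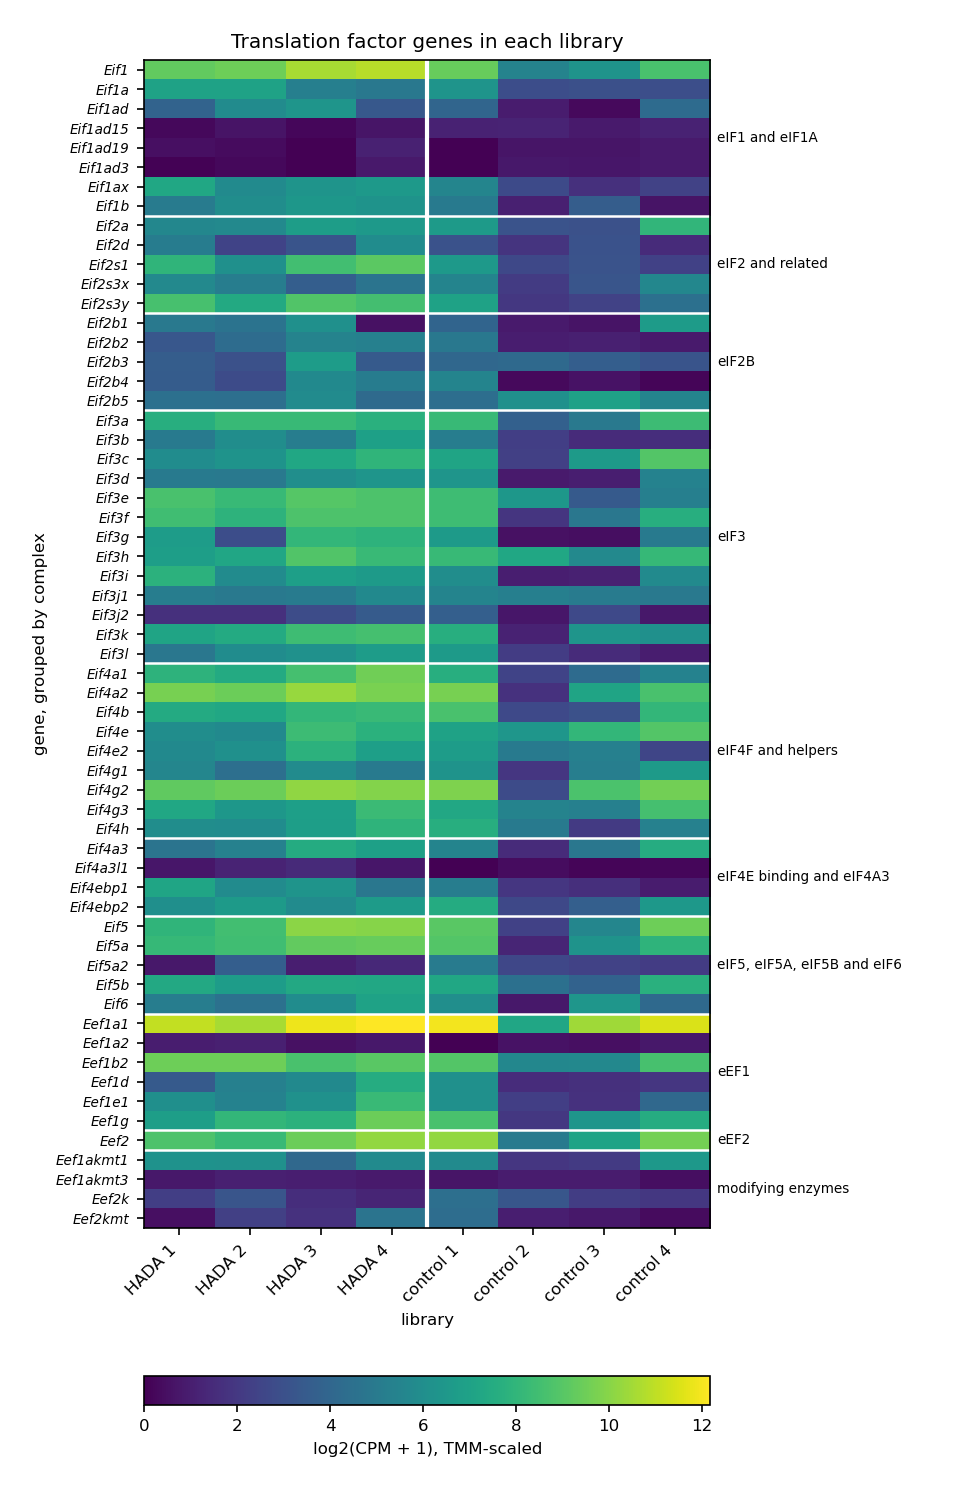
Levels of the 60 tested translation factor genes (rows, grouped by complex) in the 4 HADA and 4 Control libraries (columns), as log2(CPM + 1) by colour. The HADA libraries and Control 1 resemble one another, Control 2 is darkest with 45 genes under 10 CPM, and Control 4 lies between them with 23.

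Reads spread over genes that these cells do not use were measured on 1393 olfactory and vomeronasal receptor genes. They came to 0.211, 0.186, 0.171 and 0.121 CPM per kb in HADA replicates 1 to 4 and to 0.0496, 0.338, 0.289 and 0.202 CPM per kb in Control replicates 1 to 4. Counts were taken over whole gene spans, introns included, so that a long gene collects more of these reads. At this density the reads expected over the gene's span exceeded 50% of its counts for 10, 8, 6 and 8 factor genes in the HADA libraries and for 1, 48, 35 and 23 in the Control libraries. Of the genes that, as given below, passed the thresholds without Control replicate 1, Eif1a, Eif1ax, Eif2s1, Eif2b2, Eif2b4, Eif3b, Eif3l, Eif4a3l1, Eif4ebp1 and Eef1d had more than 50% of their counts expected from background in each of Control replicates 2 to 4, so that their fold changes in that fit were measured against values near this level. The same held for Eif1ad7 and Eif1ad8, the genes lower in HADA in that fit. Their background shares were 81.6%, 59.1% and 122% (Eif1ad7) and 88.7%, 98.9% and 53.0% (Eif1ad8) in Control replicates 2 to 4. In HADA, Eif1ad7 had 428%, 559% and 194% in replicates 2 to 4, with no count in replicate 1. Eif1ad8 had 302%, 292% and 113% in HADA replicates 1, 2 and 4, with no count in replicate 3.

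Translation factor genes took 0.919%, 0.930%, 1.16% and 1.23% of all counts in HADA replicates 1 to 4. In Control replicates 1 to 4 they took 1.56%, 0.217%, 0.450% and 0.871%. The highest share (95% Wilson interval 1.54% to 1.58%) and the lowest share (95% Wilson interval 0.215% to 0.219%) were thus both Control libraries, and the groups overlapped through Control replicate 1. These intervals cover counting error only, since copies of a cDNA molecule are not told apart. HADA libraries had a mean of 1.06% ± 0.158 (SD, n = 4). The Control mean was 0.774% ± 0.588 (SD, n = 4), or 0.513% ± 0.331 (SD, n = 3) without Control replicate 1.

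Compared to Control Tregs, HADA Tregs had higher fitted levels of 50 of the 60 tested genes (83.3%, against 50.2% of all genes tested) and lower levels of 10. After the expected background was subtracted, 36 of 50 genes were higher (72.0%, against 71.2% of all genes). Thresholds were set at 0.05 for the Benjamini-Hochberg adjusted p of edgeR's quasi-likelihood test and at 1 in either direction for the log2 fold change. By these, 0 of the 60 were higher in HADA (background 1.65% of all genes tested) and 0 were lower (background 0.477%). At an unadjusted p below 0.05 there were 11 of 60 (18.3%), against 26.7% of all genes tested. The median log2 fold change was 0.785, against 0.0145 over all genes tested, and after background subtraction it was 0.57, against 1.0. In 4 genes (Eif1ax, Eif1b, Eif2s3y and Eif4a3l1) every HADA library lay above every Control library, against a background of 9.13%, and in Eif1ad15 every HADA library lay below, against 5.70%. Eif1ad15 had 3 to 13 counts in the HADA libraries and 2 in Control replicate 1. Background reads expected over it were 78.4% to 418% of its counts in HADA and 61.9% to 134% in Control replicates 2 to 4.

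Without Control replicate 1, 15 of 63 genes were higher in HADA by the same test (background 15.5%) and 2 were lower (background 19.7%), with a median log2 fold change of 1.45. Those higher were Eif1a, Eif1ax, Eif1b, Eif2s1, Eif2s3y, Eif2b2, Eif2b4, Eif3b, Eif3e, Eif3l, Eif4a1, Eif4a3l1, Eif4ebp1, Eef1d and Eef1e1. Those lower were Eif1ad7 and Eif1ad8. The libraries did not overlap for 24 genes above (background 18.3%) and 4 below (background 26.8%). DESeq2, named in the study's methods, called 11 of 60 genes higher (background 11.2%) and 1 lower (background 19.3%) on all 8 libraries. Of its 11 genes, 9 were also among the 15 (81.8% of the one list and 60.0% of the other). The 9 were Eif1ax, Eif1b, Eif2s1, Eif2s3y, Eif3b, Eif4a1, Eif4a3l1, Eif4ebp1 and Eef1e1. With DESeq2 and without Control replicate 1, 23 of 63 genes were higher (background 26.1%) and 4 lower (background 24.9%). These fits use the same HADA libraries and 3 shared Control libraries.

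**Figure D2:**
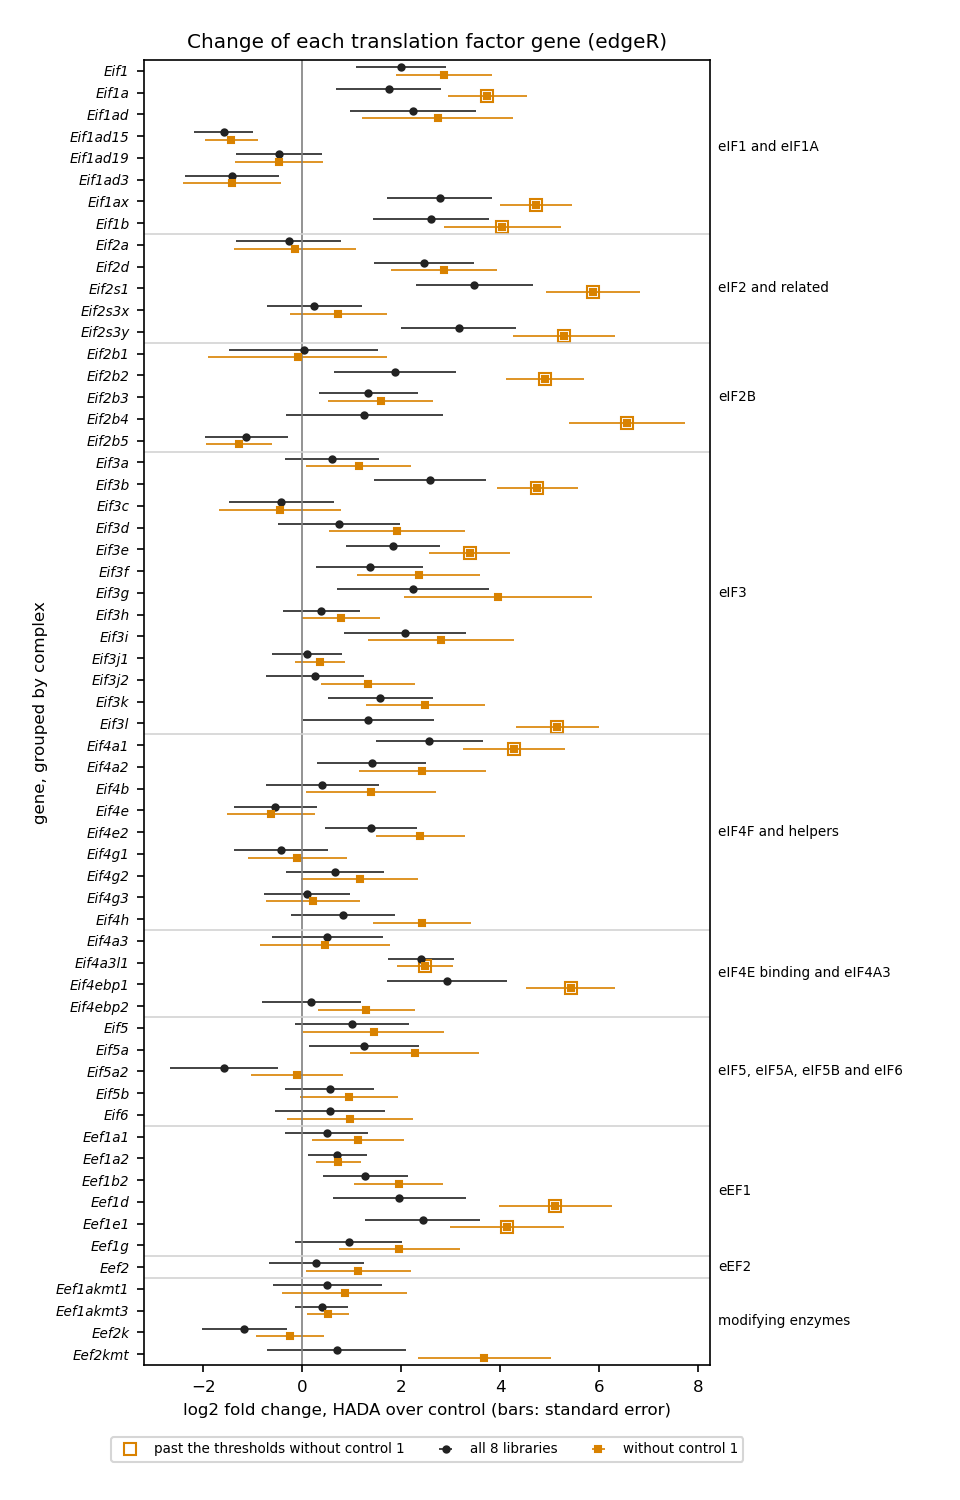
Log2 fold change (HADA over Control) of each tested translation factor gene with its standard error, from edgeR, with all 8 libraries (black circles) and without Control 1 (orange squares, outlined where past the thresholds). With all libraries no gene was past the thresholds, and 50 of 60 points lie to the right of 0.

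Among the factors that scan for the start codon, Eif1 (which guards start codon choice) was measured at 614, 712, 1541 and 1852 CPM in HADA replicates 1 to 4 and at 661, 43.2, 76.2 and 406 CPM in Control replicates 1 to 4. The groups overlapped only through Control replicate 1, and the log2 fold change was 1.99 ± 0.904 (SE, edgeR's quasi-likelihood test, Benjamini-Hochberg adjusted p = 0.184), or 2.86 without that library (adjusted p = 0.0511). Eif1ax, the X-linked gene for eIF1A (ENSMUSG00000067194, chrX:158155174-158172924), was measured at 154, 56.1, 79.1 and 96.4 CPM in HADA and at 45.4, 5.57, 2.20 and 4.29 CPM in Control. All HADA libraries exceeded all Control libraries, by 2.78 ± 1.06 on the log2 scale (SE, edgeR's quasi-likelihood test, adjusted p = 0.138), or by 4.73 without Control replicate 1 (adjusted p = 0.00715). In Control replicates 2 to 4 the background reads expected over Eif1ax were 108%, 233% and 83.6% of its counts.

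The other genes of this group divided by their level. Eif1b, a close relative of Eif1, had a log2 fold change of 2.61 and libraries that did not overlap, and Eif1a, the autosomal eIF1A gene, had 1.75 with overlap. Without Control replicate 1 these were 4.05 and 3.75 (edgeR's quasi-likelihood test, adjusted p = 0.0336 and 0.0149). Eif1ad, a nuclear protein related to eIF1A, had 2.24, or 2.74 without that library (adjusted p = 0.184). The genes with numbered Eif1ad symbols on chromosome 12 (Eif1ad3, Eif1ad15 and Eif1ad19 among those tested) had 0.522 to 1.17 CPM on average in Control and 0.258 to 0.458 CPM in HADA. These 3 genes had log2 fold changes of -1.42, -1.59 and -0.47, at levels where 3 counts in Control replicate 1 already correspond to 1.86 CPM. Of 8 genes tested in this group of 21, the median log2 fold change was 1.87, with 4 at an unadjusted p below 0.05 (edgeR's quasi-likelihood test, 26.7% of all genes tested). Among these 4, Eif1, Eif1ax and Eif1b were higher in HADA and Eif1ad15 was lower. The median of the group moved to 1.13 without Control replicate 1, 0.35 without HADA replicate 1 and 0.267 without HADA replicate 4, over 10 tested genes in each case.

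The eIF2 group had a median log2 fold change of 2.47 over 5 tested genes, or 2.87 without Control replicate 1. Eif2s1 (ENSMUSG00000021116, chr12:78908593-78933784), which encodes the alpha subunit that the stress kinases phosphorylate, was measured at 249, 69.1, 355 and 553 CPM in HADA replicates 1 to 4. In Control replicates 1 to 4 it was measured at 94.5, 5.32, 7.69 and 4.17 CPM. Control replicate 1 thus exceeded HADA replicate 2, and the other Control libraries were far below all HADA libraries. Its log2 fold change of 3.48 ± 1.19 was the highest of the 60 genes (SE, edgeR's quasi-likelihood test, adjusted p = 0.117), and was 5.88 without Control replicate 1 (adjusted p = 0.00783). Background reads expected over its span were 160%, 94.6% and 122% of its counts in Control replicates 2 to 4 and 0.550% to 6.78% in HADA.

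Eif2s3y (ENSMUSG00000069049, chrY:1010543-1028847), the Y-linked gene for the gamma subunit that holds GTP and initiator tRNA, was measured at 398, 165, 466 and 367 CPM in HADA and at 129, 2.94, 4.26 and 21.7 CPM in Control. All HADA libraries exceeded all Control libraries, with a log2 fold change of 3.16 ± 1.16 (SE, edgeR's quasi-likelihood test, adjusted p = 0.13) and of 5.29 without Control replicate 1 (adjusted p = 0.0118). Its X-linked partner Eif2s3x (ENSMUSG00000035150, chrX:93232313-93256468) was measured at 52.6, 35.1, 11.5 and 24.8 CPM in HADA and at 44.7, 3.29, 8.17 and 48.6 CPM in Control. The Eif2s3x libraries overlapped in both directions, with a log2 fold change of 0.25 ± 0.962, or 0.73 without Control replicate 1 (edgeR's quasi-likelihood test, adjusted p = 0.573). Both genes serve the same step, and their transcripts share 3 of the 32-base windows compared (0.1% of either). Of the Eif2s3x windows, however, 94.6% occur elsewhere in the genome, against 3.8% for Eif2s3y, so that the settings for reads with several matches, not given in the sources used here, bear on Eif2s3x in particular.

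Eif2d, which delivers initiator tRNA without GTP, had a log2 fold change of 2.47 ± 1.01 (2.87 without Control replicate 1), and Eif2a, which has been linked to initiation at other start codons, had -0.27, which ran from -0.66 to 1.08 when each library was left out in turn. Eif2s2, the beta subunit, was listed at 0 in all libraries. Other gene spans cover the whole of its span, as they do for Eif3m, Eif4ebp3, Eif4enif1, Eif4e3, Eef1akmt2 and Eef1akmt4, all at 0 as well.

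Of the 5 genes for eIF2B, the exchange factor of eIF2, the 4 with a positive log2 fold change ranged from 0.035 in Eif2b1, which was -0.15 with DESeq2's size factors, to 1.87 in Eif2b2, which had 4.91 without Control replicate 1 (edgeR's quasi-likelihood test, adjusted p = 0.00771). Eif2b4 was measured at 10.6, 5.82, 54.8 and 34.2 CPM in HADA and at 44.7, 0.251, 0.524 and 0.116 CPM in Control. Its log2 fold change moved from 1.26 to 6.57 when Control replicate 1 was left out (edgeR's quasi-likelihood test, adjusted p = 0.596 and 0.00977). The background reads expected over Eif2b4 were 764%, 312% and 988% of its counts in Control replicates 2 to 4. Eif2b5, the catalytic subunit, went the other way, at 21.4, 21.0, 58.0 and 17.4 CPM in HADA and 19.9, 68.6, 125 and 43.8 CPM in Control. HADA replicate 3 and Control replicate 1 brought the groups into overlap, and the log2 fold change was -1.13 ± 0.834 (SE, edgeR's quasi-likelihood test, adjusted p = 0.366), or -1.28 without Control replicate 1 (adjusted p = 0.159). Of the Eif2b5 counts in the Control libraries at most 5.17% were expected from background.

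**Figure D3:**
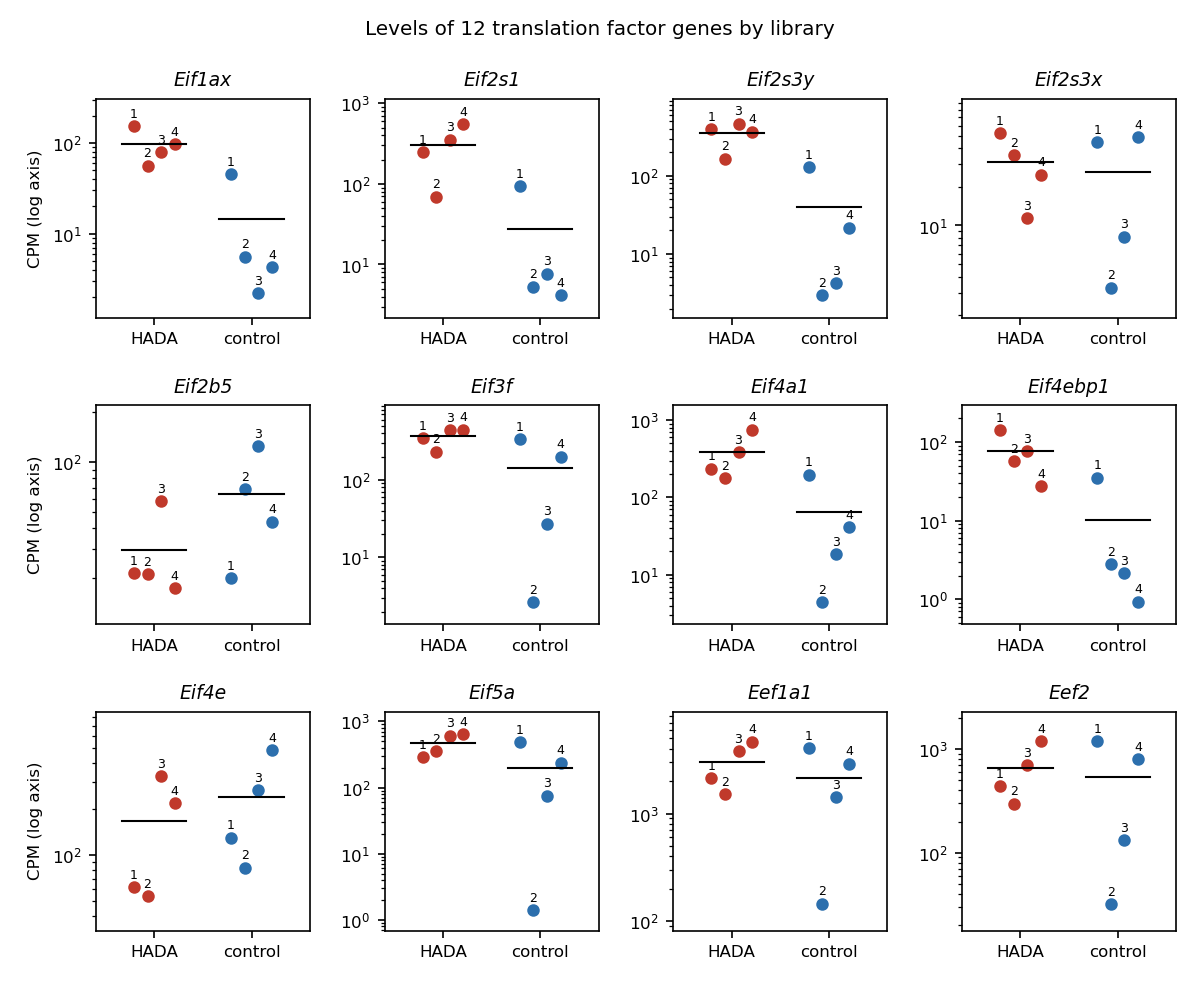
CPM (log axis) of 12 translation factor genes in each library, numbered by replicate, with the group means as lines. Control 1 lies near the HADA libraries in Eif2s1, Eif2s3y, Eif1ax and Eif4ebp1, and the other Control libraries lie lower, whereas Eif2b5 and Eif4e have their highest values in Control.

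The eIF3 complex, the scaffold that binds the small subunit, is the largest of the factors. Of its 14 genes 13 were tested and 12 had a positive log2 fold change. The median was 1.34, or 2.35 without Control replicate 1. By edgeR's test 0 passed the thresholds, and 1 had an unadjusted p below 0.05 (7.69%, against 26.7% of all genes tested). DESeq2 called 1 higher (7.69%, background 11.2%). Without Control replicate 1, edgeR called 3 higher (23.1%, background 15.5%). Eif3b, a core subunit that binds RNA, was measured at 31.6, 61.9, 34.6 and 119 CPM in HADA and at 34.8, 3.85, 1.78 and 1.97 CPM in Control. Within the complex its log2 fold change was the highest, 2.58 ± 1.13 (SE, edgeR's quasi-likelihood test, adjusted p = 0.173), or 4.76 without Control replicate 1 (adjusted p = 0.00883). The background reads expected over Eif3b were 210%, 388% and 246% of its counts in Control replicates 2 to 4. Eif3e was measured at 412, 299, 498 and 439 CPM in HADA and at 331, 85.9, 10.1 and 36.7 CPM in Control. Control replicate 1 exceeded HADA replicate 2 alone, and the log2 fold change was 1.83 ± 0.951 with all libraries and 3.39 without Control replicate 1 (edgeR's quasi-likelihood test, adjusted p = 0.224 and 0.0199).

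Other eIF3 subunits were less uniform between the Control libraries. Eif3f had 346, 232, 437 and 443 CPM in HADA and 339, 2.66, 27.3 and 199 CPM in Control, with a log2 fold change of 1.36 ± 1.08, or 2.35 without Control replicate 1 (edgeR's quasi-likelihood test, adjusted p = 0.162). Eif3a, the largest subunit, had 196, 296, 296 and 213 CPM in HADA and 293, 12.2, 29.1 and 324 CPM in Control, with a log2 fold change of 0.61 (1.14 without Control replicate 1). Its values in Control replicates 1 and 4 were as high as in HADA. Eif3h had a log2 fold change of 0.39, which turned negative when libraries were scaled to their totals (-0.33), and Eif3c, a core subunit, had the only negative value of the complex (-0.43). Eif3j1, a loosely bound subunit, was nearly level, at 29.7 to 54.9 CPM in HADA and 29.0 to 43.5 CPM in Control, and its log2 fold change was 0.096 ± 0.702, with -0.018 to 0.35 when each library was left out. It shares 93.8% of the windows of Eif3j2, so that reads of these copies may be split.

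Within eIF4F and its helpers, 7 of 9 tested genes had a positive log2 fold change, and the median was 0.66. The helicase gene Eif4a1 was measured at 235, 176, 382 and 749 CPM in HADA and at 196, 4.45, 18.4 and 41.6 CPM in Control. Control replicate 1 exceeded only HADA replicate 2, and the log2 fold change was 2.57 ± 1.08 (SE, edgeR's quasi-likelihood test, adjusted p = 0.163), or 4.28 without Control replicate 1 (adjusted p = 0.0196). Of the Eif4a1 windows 91.0% occur elsewhere in the genome. The second helicase gene, Eif4a2, had 706 to 1281 CPM in HADA and 2.29 to 833 CPM in Control, with a log2 fold change of 1.40, or 2.43 without Control replicate 1 (edgeR's quasi-likelihood test, adjusted p = 0.165).

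Eif4e, the cap-binding protein itself, was measured at 61.6, 53.4, 330 and 220 CPM in HADA and at 130, 82.4, 267 and 487 CPM in Control. The ranges overlapped broadly, and the log2 fold change was -0.54 ± 0.847 (SE, edgeR's quasi-likelihood test, adjusted p = 0.676), or -0.63 without Control replicate 1 (adjusted p = 0.588). The scaffold gene Eif4g1 had -0.43 and the related Eif4g2 had 0.66, while Eif4b, which stimulates the helicase, had 0.40. Eif4ebp1 (chr8:27750357-27766702), which encodes 4E-BP1, the mTOR-controlled inhibitor of eIF4E, was measured at 143, 57.4, 77.3 and 27.2 CPM in HADA and at 35.4, 2.82, 2.13 and 0.927 CPM in Control. HADA replicate 4 fell below Control replicate 1, and the log2 fold change was 2.93 ± 1.21 (SE, edgeR's quasi-likelihood test, adjusted p = 0.16), or 5.43 without Control replicate 1 (adjusted p = 0.00808). In Control replicates 2 to 4 the background expected over Eif4ebp1 was 196%, 221% and 356% of its counts. Eif4ebp2, a second 4E-binding protein, had a log2 fold change of 0.19, or -0.14 when libraries were scaled to their totals. Eif4a3l1, a copy of the exon junction helicase gene Eif4a3, had 0.661 to 1.71 CPM in HADA and 0 to 0.313 CPM in Control, and its value of 0 in Control replicate 1 lies under the 1.86 CPM that 3 counts give there.

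The late initiation factors were nearer to level. Eif5, which triggers GTP hydrolysis on eIF2, was measured at 251, 357, 1058 and 987 CPM in HADA and at 542, 4.20, 46.6 and 731 CPM in Control, and the log2 fold change was 1.004 ± 1.16, or 1.45 without Control replicate 1. Eif5a, the hypusinated factor that relieves stalled ribosomes, was measured at 289, 352, 607 and 644 CPM in HADA and at 482, 1.41, 75.5 and 239 CPM in Control, with a log2 fold change of 1.25 ± 1.12, or 2.27 without that library. For both genes Control replicate 2 was lowest by a wide margin. Eif5b, which joins the ribosomal subunits, had a log2 fold change of 0.56, and Eif6, which keeps the large subunit apart, had 0.56, or -0.13 when libraries were scaled to their totals. Eif5a2, the second eIF5A gene, had a log2 fold change of -1.59, and its highest value was 32.3 CPM in Control replicate 1. Without that library it was -0.099. Background reads expected over Eif5a2 were 29.0% to 495% of its counts in HADA and 100% to 116% in Control replicates 2 to 4.

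Elongation factor genes held the most abundant message of the set. Eef1a1 (ENSMUSG00000037742, chr9:78385731-78396433) was measured at 2126, 1516, 3791 and 4648 CPM in HADA replicates 1 to 4 and at 4063, 145, 1416 and 2917 CPM in Control replicates 1 to 4. All Control libraries but replicates 2 and 3 lay within the HADA range, and the log2 fold change was 0.50 ± 0.839 (SE, edgeR's quasi-likelihood test, adjusted p = 0.697), or 1.12 without Control replicate 1 (adjusted p = 0.358). Per kb of transcript it had the highest mean level in both groups, 1683 CPM in HADA and 1190 CPM in Control, followed by Eif1 with 866 and 218 CPM. It took between 14.8% and 39.9% of the factor counts of a library. The order below the leading genes differed more, since Eif2s1 held place 16 in HADA and 39 in Control, and Eif4a1 held 8 and 19. Eef2 held 9 and 3. These places rest on mean levels whose spread in Control is as large as the mean for many genes, and neighbours in the order are not told apart. They also set counts over whole spans, background included, against the length of a spliced transcript. Of the windows of Eef1a1 86.2% occur elsewhere in the genome, and of those of Eif1 67.6%. The 10 tested genes with over 50% of windows elsewhere had a median log2 fold change of 0.378, and the 27 with under 5% had 1.34. The part of such reads was not tested.

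All 6 eEF1 genes had a positive log2 fold change, with a median of 1.11. For Eef1a2 among them, background reads expected were 157% to 339% of its counts in HADA and 272% to 644% in Control replicates 2 to 4. After background subtraction 4 of 5 eEF1 genes were positive (80.0%, against 71.2% of all genes), with a median of 0.927, against 1.0 over all genes. By edgeR's test 0 passed the thresholds, and 0 had an unadjusted p below 0.05 (against 26.7% of all genes tested). DESeq2 called 1 higher (16.7%, background 11.2%). Without Control replicate 1, edgeR called 2 higher (33.3%, background 15.5%). Eef1b2, an exchange factor of eEF1A, was measured at 718, 728, 416 and 542 CPM in HADA and at 491, 48.7, 50.1 and 402 CPM in Control. Only Control replicate 1 reached into the HADA range, and the log2 fold change was 1.28 ± 0.852 (SE, edgeR's quasi-likelihood test, adjusted p = 0.321), or 1.95 without that library (adjusted p = 0.119). Eef1d, the second exchange factor, was measured at 9.90, 38.6, 53.9 and 188 CPM in HADA and at 69.0, 1.88, 2.20 and 2.78 CPM in Control. Its log2 fold change was 1.97 with all libraries and 5.12 without Control replicate 1 (edgeR's quasi-likelihood test, adjusted p = 0.33 and 0.0162). The background reads expected over Eef1d were 271%, 198% and 109% of its counts in Control replicates 2 to 4. Eef1e1, also known as AIMP3, a part of the tRNA synthetase complex, had the highest value of the group at 2.44 ± 1.16, with 307 CPM in HADA replicate 4 and 41.6 to 71.3 CPM in the other HADA libraries, and 4.14 without Control replicate 1 (edgeR's quasi-likelihood test, adjusted p = 0.0294). Eef1g, the structural subunit, had 0.94, or 1.97 without that library (adjusted p = 0.23), and 72.3% of its windows occur elsewhere in the genome.

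Eef2, the translocase, was measured at 440, 297, 702 and 1200 CPM in HADA and at 1194, 31.8, 132 and 803 CPM in Control. The groups overlapped, and its log2 fold change was 0.29 ± 0.968, or -0.18 when libraries were scaled to their totals and 1.14 without Control replicate 1. Eef2k, the kinase that stops eEF2, had 1.38 to 8.25 CPM in HADA and 2.96 to 20.5 CPM in Control, with a log2 fold change of -1.17 (edgeR's quasi-likelihood test, adjusted p = 0.362) or -0.24 without Control replicate 1. Background reads expected over its long span exceeded its counts in all libraries but Control replicate 1. The methyltransferase genes Eef1akmt1, Eef1akmt3 and Eef2kmt had log2 fold changes of 0.51, 0.39 and 0.69. That of Eef2kmt was 3.69 without Control replicate 1 (edgeR's quasi-likelihood test, adjusted p = 0.0627) and ran down to -1.03 when other libraries were left out.

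Related factor genes were also compared within a library, since a ratio of counts does not depend on how libraries are scaled. The 13 pairs were chosen with earlier results known, and 0.5 was added to each count. The Eif2s3y to Eif2s3x ratio was 7.56, 4.71, 40.6 and 14.8 in HADA replicates 1 to 4 and 2.86, 0.896, 0.522 and 0.447 in Control replicates 1 to 4. No libraries overlapped, and the ratio was 13.7-fold higher in HADA (3.78 on the log2 scale, exact two-sided permutation test, p = 0.0286, adjusted over 13 pairs p = 0.186). No smaller p is possible with 4 libraries against 4. Without Control replicate 1 the log2 difference was 4.35 (exact two-sided permutation test, p = 0.0571). The Eif4g1 to Eif4g2 ratio was 0.0815, 0.0303, 0.0508 and 0.0329 in HADA and 0.0834, 0.477, 0.0835 and 0.125 in Control. It was lower in every HADA library, by -1.67 on the log2 scale (exact two-sided permutation test, p = 0.0286, adjusted p = 0.186), although HADA replicate 1 and Control replicates 1 and 3 were close together.

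The other 11 ratios overlapped between groups. The largest in size was Eif5a2 to Eif5a, at 0.00266, 0.0320, 0.00170 and 0.00257 in HADA and 0.0676, 3.59, 0.0581 and 0.0149 in Control (log2 difference -4.78, exact two-sided permutation test, p = 0.0571, adjusted p = 0.186). HADA replicate 2 lay above Control replicate 4. The largest of those higher in HADA was Eif4ebp1 to Eif4e, at 2.32, 1.07, 0.234 and 0.124 in HADA and 0.274, 0.0344, 0.00803 and 0.00196 in Control. The log2 difference of 4.72 came with Control replicate 1 inside the HADA range (exact two-sided permutation test, p = 0.0857, adjusted p = 0.186). Reads from unused genes add to both members of a pair in proportion to their spans. In Control replicates 2 and 3 the number expected was 124% to 221% of the counts of Eif2s3y and Eif4ebp1. For Eif2s3x it was 248% and 85.3% there, so that Eif2s3y and Eif2s3x were both near background in these libraries. In Control replicates 1 and 4 the number expected was at most 17.0% of the counts of Eif2s3y or Eif2s3x. For Eif5a2 it was 495%, 29.0%, 299% and 131% in HADA replicates 1 to 4 and 2.70%, 116%, 116% and 100% in Control replicates 1 to 4. For Eif5a it was 126% in Control replicate 2, so that both members of this pair were near background there. For Eif4g1 and Eif4g2 it was 297% and 87.1% in Control replicate 2. The part of these reads in the ratios was not tested.

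**Figure D4:**
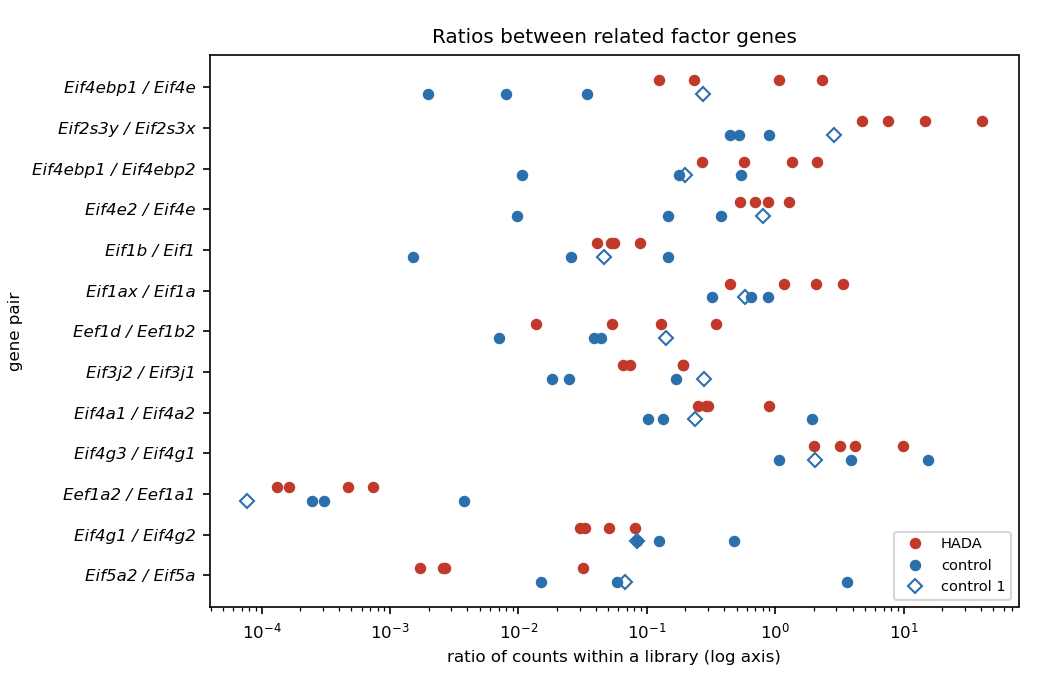
Ratios of counts (log axis) between 13 pairs of related factor genes within each library, HADA in red and Control in blue, with Control 1 as an open diamond. Only Eif2s3y to Eif2s3x and Eif4g1 to Eif4g2 have groups that do not overlap.

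Genes that act beside the factors were counted from lists. Of 16 regulators of initiation, 1 passed the thresholds with all libraries, and 7 were higher and 1 lower without Control replicate 1 (backgrounds 15.5% and 19.7%). The 1 with all libraries was Eif2ak1, the haem-regulated kinase of eIF2 alpha, measured at 1028, 1003, 829 and 712 CPM in HADA and at 70.8, 7.52, 14.99 and 2.84 CPM in Control. It rose by 5.23 ± 1.07 on the log2 scale (SE, edgeR's quasi-likelihood test, adjusted p = 0.0306), or by 6.86 without Control replicate 1 (adjusted p = 0.00468), with no overlap between the libraries. Haemoglobin genes took 0.00973% to 0.252% of counts in HADA and 0.227% to 3.08% in Control, and their part in this value was not tested. With all libraries the other eIF2 kinases did not pass the thresholds, with log2 fold changes of 0.74 in Eif2ak2, 0.64 in Eif2ak3 and 1.12 in Eif2ak4. Without Control replicate 1, Eif2ak2 (2.43, edgeR's quasi-likelihood test, adjusted p = 0.0234) and Eif2ak3 (2.41, adjusted p = 0.0434) passed, and Eif2ak4 did not (1.65, adjusted p = 0.139). Rptor, the mTORC1 scaffold, had the only negative value of the regulators (-1.98, edgeR's quasi-likelihood test, adjusted p = 0.165), and without Control replicate 1 it was lower in HADA by the thresholds (-2.19, adjusted p = 0.0355).

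By edgeR's test with all libraries, 0 genes passed the thresholds among 4 tested genes of release and recycling (median log2 fold change 1.58), 5 of poly(A) binding (-0.11), 2 of reinitiation (2.75), 10 of the multisynthetase complex (0.25), 9 mitochondrial translation factors (1.83) and 1 tested gene of eIF5A hypusination. At an unadjusted p below 0.05 there were 1 of reinitiation and 4 mitochondrial factors, against 26.7% of all genes tested. By DESeq2 (background 11.2%), 1 gene of reinitiation, 1 of the multisynthetase complex and 3 mitochondrial factors passed. Without Control replicate 1 (background 15.5%) the calls higher in HADA were 2, 0, 2, 3, 3 and 1 in the same order. Dhps, the enzyme that begins the hypusination of eIF5A, had a log2 fold change of 2.54 with all libraries and 6.03 without Control replicate 1 (edgeR's quasi-likelihood test, adjusted p = 0.249 and 0.0104). Tufm and Tsfm, the mitochondrial counterparts of eEF1A and its exchange factor, had log2 fold changes of 4.002 and 3.71 with HADA libraries all above the Control libraries (adjusted p = 0.123 and 0.105).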

How the data were processed

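RNA-seq of sorted peripheral blood Tregs was analysed in 4 HADA and 4 Control libraries, grouped and numbered by their labels. Per the labels, the authors used FastQC, Trimmomatic, STAR (on the GRCm39 build) and featureCounts, and deposited raw read counts per gene. The featureCounts settings for strand and for reads with several matches are not given in the sources used here. The counted length equals the whole gene span, introns included, so that reads over introns enter the values and reads shared by overlapping spans may be lost. Total counts were 1477431 to 28240337 per library, and 3 counts, taken as the smallest visible amount, correspond to 0.118 to 0.180 CPM in HADA and 0.0925 to 1.86 CPM in Control.

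Gene symbols came from GENCODE vM39, in which 56236 of 56980 identifiers were found. The members, complexes, pathway and marker lists were chosen with earlier results of these data known. Genes named are the central subunits of each complex, those past the thresholds, and the 5 highest and 5 lowest log2 fold changes; others named were chosen after their values were seen. The groups were compared in edgeR 4.0.16 under R 4.3.3, with TMM scaling, filterByExpr and the quasi-likelihood test, and p-values were adjusted over 21991 genes (Benjamini-Hochberg). Thresholds were 0.05 for the adjusted p and 1 for the size of the log2 fold change. The fit was tested on simulated counts with known changes and a smaller spread than these libraries have. DESeq2 1.42.0, limma 3.58.1, other filters and scalings, a background subtraction, a replicate block and each library left out were tried as alternatives, of which scaling to total counts and DESeq2 without Control replicate 1 were added after seeing the data. Ratios were compared by exact permutation tests with scipy 1.17.1. Start windows were read from the GRCm39 genome at the canonical GENCODE transcript. Copies were counted as the share of 32-base windows of a transcript that occur elsewhere in the genome. Protein sequences were not used here.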

Additional observations from a re-analysis of the deposited data

Results flagged for a closer look

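In 76 groups of 4 libraries, covering the log2 CPM of 36 genes and the median log2 CPM and share of counts of all factor genes, the highest or lowest value was compared with the nearest of the others by Dixon's criterion, which flags about 1 in 20 groups by chance, or 3.8 here. It marked 7. In Control replicate 1, Eif1a stood at 6.28 against 2.69 to 2.80 in the other Control libraries, Eef1d at 6.11 against 0.984 to 1.53, and Eif5a2 at 5.02 against 1.86 to 2.38. Eif1ad3, with no count there, stood at -3.34 against -0.391 to -0.136. Of the 7 values, 4 thus belong to the library with the fewest counts, and 0 to Control replicate 2. Eif1ad15 stood at -0.0939 in Control replicate 3 against 0.424 to 0.499 in the others. Among the HADA libraries, Eif2b5, the catalytic subunit of eIF2B, stood at 5.86 in replicate 3 against 4.13 to 4.42, and Eif5b, the subunit joining factor, at 6.72 in replicate 2 against 7.32 to 7.35.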

How the results depend on the processing

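The counts of translation factor genes past the thresholds depended on 1 Control library and on the test. With edgeR and all libraries they were 0 higher and 0 lower (backgrounds 1.65% and 0.477% of all genes tested). DESeq2's test gave 11 of 60 higher and 1 lower (backgrounds 11.2% and 19.3%). Without Control replicate 1, edgeR gave 15 of 63 higher and 2 lower (backgrounds 15.5% and 19.7%). DESeq2 without Control replicate 1, added after seeing the data, gave 23 of 63 higher and 4 lower (backgrounds 26.1% and 24.9%). The calls over all genes thus rose with the same changes of fit. Over the fits that left out each library in turn, the higher calls ran from 0 to 15 and the lower calls from 0 to 2. The genes with all HADA libraries above all Control libraries ran from 4 to 24, with 11 without HADA replicate 2. The 24 came without Control replicate 1 (background 18.3%). That count was 4 with all libraries (background 9.13%), 2 when libraries were drawn down to the smallest total, 2 when scaled to total counts, and 26 in the DESeq2 fit without Control replicate 1. For the other settings the share over all genes is not given here. The median log2 fold change stayed positive under all of these, from 0.331 when scaled to total counts (median of all genes -0.708) to 1.91 with limma on log2 CPM. After background subtraction it was 0.57 over 50 genes, below the median of all genes (1.0). Of all calls in the table, 77.6% were higher in HADA with TMM, 53.2% when scaled to total counts and 36.6% by DESeq2. The difference in share of counts ran from 0.0998 percentage points without Control replicate 2 to 0.547 without Control replicate 1.

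Deviations from the group means were correlated between HADA and Control libraries. Libraries of the same number had r = -0.207, 0.252, -0.0805 and -0.00316 for numbers 1 to 4, and the other combinations ran from -0.261 to 0.248. With 4 libraries per group these values cannot show whether the numbers pair the libraries, which the labels do not state. With the replicate number as a block, 0 factor genes were higher and 0 lower (158 and 11 of 21991 over all genes). In that fit 20 factor genes had an unadjusted p below 0.05, for which the share over all genes is not given here. The median log2 fold change was 1.82, and Eif3c (0.41) and Eif4g1 (0.241) changed sign.

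Other changes of sign were all of genes that passed no threshold. Eif2b1 was -0.146 with DESeq2 size factors, -0.145 by DESeq2, -0.542 drawn down, -0.173 after background subtraction, -0.0489 scaled to totals and -0.0918 by DESeq2 without Control replicate 1. With at least 10 counts in every library, Eif2s3x was -0.0627, Eif3h -0.377, Eif4ebp2 -0.081, Eif6 -0.189, Eef1a1 -0.00579 and Eef2 -0.136. Drawn down to the smallest total, Eif2s3x was -0.0699, Eif3h -0.509, Eif4ebp2 -0.255, Eif4b -0.136, Eif5b -0.0462, Eif6 -0.194, Eef1a1 -0.101 and Eef2 -0.279. After background subtraction Eif3h was -0.745, Eif6 -0.367, Eef1a1 -0.0822 and Eef2 -0.177. Scaled to totals, Eif3h was -0.332, Eif4ebp2 -0.143, Eif6 -0.133 and Eef2 -0.178. With limma, Eif3c was 0.68 and Eif4g1 0.313, and Eif5a2 was 0.00668 by DESeq2 without Control replicate 1. With each library left out, Eif2s3x ran from -0.271 to 0.790, Eif2b1 from -0.633 to 2.67, Eef2 from -0.103 to 1.14, Eif4ebp2 from -0.202 to 1.29, Eif3c from -0.834 to 0.809, Eif4e from -1.01 to 0.118 and Eif4g1 from -0.826 to 0.0958. The cause of these changes was not tested. By complex, the median of eEF2, a single gene, turned with these settings as Eef2 did, that of eIF2B was -0.345 without HADA replicate 3, that of the modifying enzymes -0.27 scaled to totals, and that of eIF1 and eIF1A -1.22 with no filter, 0.35 without HADA replicate 1 and 0.267 without HADA replicate 4. Depth limits Control replicate 1 most, where 3 counts are 1.86 CPM.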
